A study of Mus musculus with 6 samples.

Results

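Cyp2c55, Cyp2c65 and Cyp2c66 encode cytochrome P450 enzymes, Nr1i2 and Nr1i3 encode the xenobiotic-sensing nuclear receptors PXR and CAR, Rxra encodes their shared partner RXR alpha, and Por encodes the reductase that supplies P450 enzymes with electrons. These 7 genes, of 18268 listed genes, were compared between colitis mice receiving berberine (BBR), a plant alkaloid, and colitis mice receiving sulfasalazine (SASP), an aminosalicylate prodrug. The members were chosen by symbol, and they were chosen with the measured difference of Cyp2c55 between BBR and SASP already known. Their levels and fold changes in this contrast are therefore given as a description, without p-values.

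Transcripts were measured by RNA sequencing in colorectal tissue of C57BL/6 mice, with 3 samples per drug. Each sample is called a mouse here, although the labels do not say that each comes from a separate mouse. All mice drank water with dextran sulfate sodium (DSS), which damages the colonic epithelium, for 7 days, and were gavaged with BBR or SASP for 6 days. The methods of the study describe adult male mice, and the daily doses of the drugs differed. Healthy mice and colitis mice without a drug were not analysed here, so each difference is between the drugs and not from an untreated level. The text of the study describes rectal samples for its BBR experiment and colon samples for its SASP experiment, whereas the labels give the same tissue for all, so a difference in site and the drug cannot be told apart.

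PXR and CAR bind drugs, bile acids and plant compounds, pair with RXR alpha and switch on genes of drug oxidation, conjugation and export. PXR is well known in intestinal epithelium, whereas CAR is best known in liver. Cyp2c enzymes oxidise drugs and also fatty acids such as arachidonic acid, and mouse Cyp2c55 is known as a P450 of the large bowel. All of them need electrons from NADPH, which P450 reductase passes on.

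Over the whole table, FPKM summed to 461163 to 487054 per sample, and 11518 to 12307 genes reached 1 FPKM. Across genes, log2(FPKM + 1) correlated at 0.987 between BBR mice 1 and 2, but at 0.953 and 0.949 between BBR mouse 3 and these mice, against 0.982 to 0.989 among SASP mice. BBR mouse 3 therefore stands apart from BBR mice 1 and 2. It correlated with SASP mice 1, 2 and 3 at 0.92, 0.953 and 0.944, about as closely with SASP mice 2 and 3 as with its own group. For BBR mouse 1 the values with SASP mice 1, 2 and 3 were 0.932, 0.953 and 0.943. For BBR mouse 2 they were 0.916, 0.941 and 0.933. Values without BBR mouse 3 are given beside some of the results it touches, but not all.

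The 250 bases before the RefSeq starts of the 3 Cyp2c members are shown because they carry the regulatory letters nearest to each gene, and because Cyp2c65 and Cyp2c66 are close copies whose reads cannot always be separated. The windows are on the forward strand of build GRCm38.p6 at chr19:39006769-39007018 for Cyp2c55, chr19:39060756-39061005 for Cyp2c65 and chr19:39113648-39113897 for Cyp2c66. They are written 5′ to 3′, each window ends at the base before the start, and capitals mark the TATA-like letters nearest to it.
Cyp2c55: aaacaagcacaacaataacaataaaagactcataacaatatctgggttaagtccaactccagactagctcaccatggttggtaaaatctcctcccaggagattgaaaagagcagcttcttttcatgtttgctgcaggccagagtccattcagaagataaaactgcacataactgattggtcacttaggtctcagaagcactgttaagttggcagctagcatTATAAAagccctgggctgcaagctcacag
Cyp2c65: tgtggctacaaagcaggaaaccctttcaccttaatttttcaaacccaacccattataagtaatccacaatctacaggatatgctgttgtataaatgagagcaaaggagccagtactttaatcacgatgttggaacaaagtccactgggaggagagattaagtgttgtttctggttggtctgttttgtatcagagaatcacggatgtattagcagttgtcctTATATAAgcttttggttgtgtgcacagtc
Cyp2c66: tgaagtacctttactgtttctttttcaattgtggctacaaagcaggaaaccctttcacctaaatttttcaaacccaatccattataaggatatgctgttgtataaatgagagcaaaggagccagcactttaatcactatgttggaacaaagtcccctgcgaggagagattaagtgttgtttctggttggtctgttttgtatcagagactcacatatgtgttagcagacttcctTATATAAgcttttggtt

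The aligned windows of Cyp2c65 and Cyp2c66 matched at 208 of 221 bases (94.1%), whereas Cyp2c55 matched them at 65.3% and 60.4%. TATAAA began 29 bases before the start of Cyp2c55, and TATATAA began 29 bases before that of Cyp2c65 and 17 bases before that of Cyp2c66. Searched on both strands, TATAAA was present in 12.4% and TATATAA in 3.04% of 32851 RefSeq windows of the same length. The receptors bind pairs of letters related to AGGTCA and AGTTCA, which were present singly in 14% and 11.8% of all windows. Neither occurred in the windows of the 3 Cyp2c members, Nr1i2, Nr1i3 or Por. AGGTCA occurred in 1 of the 2 Rxra windows, at 48 bases and, on the reverse strand, at 87 bases before the start. Direct repeats of these letters spaced by 3, 4 or 5 bases were found in 0.0122%, 0.0244% and 0.0335% of windows. Everted repeats spaced by 6 or 8 bases were found in 0.00913% and 0.0122%, and no member held any of these repeats. A match is only a description of the letters, and more distant sequence was not searched.

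Cyp2c55 (72082) had the highest mean of the members in both groups and the widest difference. In SASP this rested on mouse 2, and in SASP mice 1 and 3 Nr1i2 was higher than Cyp2c55. It was measured at 917, 416 and 772 FPKM (read fragments divided by transcript length and by library size) in BBR mice 1, 2 and 3. In SASP mice 1, 2 and 3 it was at 4.01, 101.6 and 28.4 FPKM. The groups did not overlap, and the lowest BBR mouse was 4.09 times as high as the highest SASP mouse. The mean was 702 ± 258 FPKM (SD, n = 3) in BBR and 44.7 ± 50.8 FPKM (SD, n = 3) in SASP, a ratio of 15.7. The log2 fold change of FPKM + 1 was 4.75 (SE 0.99), the scale of every fold change below. It ranked 72nd by mean FPKM in BBR and 1771st in SASP among all genes listed. At the estimated depth these levels stand for about 30000, 14000 and 26000 reads in BBR and 140, 3700 and 950 reads in SASP, so counting error was small beside the spread between mice.

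The spread of Cyp2c55 was mostly among the SASP mice. The highest SASP mouse was 25.3 times the lowest, whereas in BBR the highest was 2.2 times the lowest. Its coefficient of variation was 114% in SASP and 36.7% in BBR. Leaving out SASP mouse 1, the lowest, lowered the log2 fold change to 3.60, and leaving out SASP mouse 2, the highest, raised it to 5.78.

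Cyp2c65 (72303), whose gene follows Cyp2c55 on chromosome 19, was far less abundant. It was at 5.37, 3.95 and 8.50 FPKM in BBR and at 1.12, 0.95 and 0.82 FPKM in SASP. All BBR mice lay above all SASP mice, with the lowest BBR value 3.53 times the highest SASP value. The mean was 5.94 ± 2.33 FPKM (SD, n = 3) in BBR and 0.963 ± 0.150 FPKM (SD, n = 3) in SASP, a log2 fold change of 1.77 (SE 0.24). The added 1 shrinks the change of a gene at this level, and with 0.1 in its place the log2 fold change was 2.45. The SASP values stand for about 38, 33 and 27 reads, so they carry more counting error than those of Cyp2c55. Only 4 of the 6 mice reached 1 FPKM, 3 of them BBR mice, so the gene passed the filter on low values through the group in which it was high.

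Cyp2c66 (69888) was listed at 0 in all BBR mice and in SASP mice 1 and 2, and at 0.04 FPKM in SASP mouse 3, about 1 read. It did not pass the filter and no fold change is given. Over 50-base windows, the read length stated by the study, 379 of the 1581 windows of the Cyp2c66 transcript (24%) were found letter for letter in Cyp2c65. In the other direction 388 of 1879 Cyp2c65 windows (20.6%) occurred in another gene. The transcripts matched at 96.2% of 1614 aligned bases. Reads from these shared stretches are divided between the genes by estimation, so the level of Cyp2c65 and the near absence of Cyp2c66 are uncertain to that extent. Cyp2c55 shared only 10 of 1946 windows (0.514%), with the pseudogene Cyp2c52-ps, and its transcript matched Cyp2c65 at 73.1% and Cyp2c66 at 74.4%. None of the windows of Nr1i2, Nr1i3, Rxra or Por was shared with another gene.

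**Figure D1:**
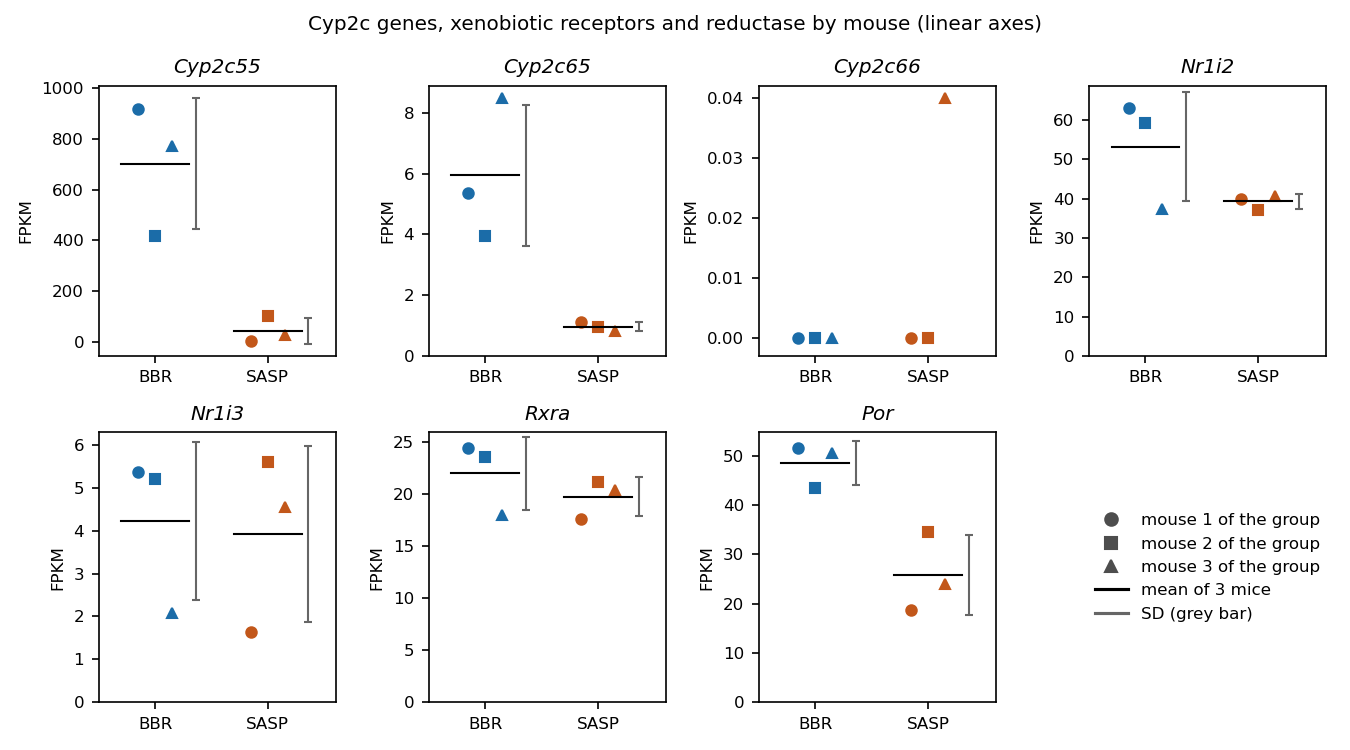
FPKM of the 7 genes in each mouse, on a linear axis of its own for each gene, with BBR mice in blue and SASP mice in orange. Black lines are means of 3 mice and grey bars are SDs, omitted for Cyp2c66, which was listed at 0 in 5 of 6 mice. Groups stand apart for Cyp2c55, Cyp2c65 and Por, and overlap for Nr1i2, Nr1i3 and Rxra.

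Por (18984), the electron donor of all microsomal P450 enzymes, was also higher with BBR, by a smaller factor. It was at 51.7, 43.5 and 50.5 FPKM in BBR and at 18.7, 34.6 and 24.1 FPKM in SASP. The groups did not overlap, although the lowest BBR mouse was only 1.26 times the highest SASP mouse. Means were 48.6 ± 4.39 and 25.8 ± 8.08 FPKM (SD, n = 3 each), a ratio of 1.88 and a log2 fold change of 0.93 (SE 0.21). As for Cyp2c55, the SASP mice were spread more widely, with a highest-to-lowest ratio of 1.85 against 1.19 in BBR.

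The levels of the receptor genes overlapped between the groups. Nr1i2 (18171), encoding PXR, was at 63.1, 59.3 and 37.3 FPKM in BBR and at 40.0, 37.2 and 40.6 FPKM in SASP. BBR mice 1 and 2 lay above the SASP mice, and BBR mouse 3 lay among them. Means were 53.2 ± 13.9 and 39.3 ± 1.81 FPKM (SD, n = 3 each), and the log2 fold change was 0.39 (SE 0.20). Without BBR mouse 3 the log2 fold change was 0.63.

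Nr1i3 (12355), encoding CAR, was a much less abundant transcript than Nr1i2. It was at 5.37, 5.19 and 2.09 FPKM in BBR and at 1.64, 5.60 and 4.54 FPKM in SASP. The highest and the lowest values were both in the SASP group. Means were 4.22 ± 1.84 and 3.93 ± 2.05 FPKM (SD, n = 3 each), and the log2 fold change of 0.11 (SE 0.42) was smaller than its error. Its sign turned to -0.04 with quantile normalization and to -0.07, -0.05 and -0.29 without BBR mouse 1, BBR mouse 2 and SASP mouse 1, respectively. Within a mouse, Nr1i2 was 6.65 to 24.4 times as high as Nr1i3 in SASP and 11.4 to 17.8 times as high in BBR.

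Rxra (20181), the partner of both receptors, had the narrowest range of the tested members over the 6 mice relative to its level. It was at 24.5, 23.6 and 18.0 FPKM in BBR and at 17.7, 21.2 and 20.5 FPKM in SASP. The groups overlapped, with means of 22.1 ± 3.51 and 19.8 ± 1.87 FPKM (SD, n = 3 each) and a log2 fold change of 0.14 (SE 0.15). The lowest level of Nr1i2, Nr1i3 and Rxra among BBR mice was that of BBR mouse 3 in each case.

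In BBR the order of mean levels was Cyp2c55, Nr1i2, Por, Rxra, Cyp2c65, Nr1i3 and Cyp2c66. The neighbours Nr1i2 and Por overlapped between mice, as did Cyp2c65 and Nr1i3. In SASP the order was Cyp2c55, Nr1i2, Por, Rxra, Nr1i3, Cyp2c65 and Cyp2c66. There the range of Cyp2c55 spanned those of Nr1i2, Por and Rxra, and Por overlapped Rxra. In SASP mouse 1 Cyp2c55 was 0.214 times as high as Por, whereas it was 2.94 and 1.18 times as high in SASP mice 2 and 3. In BBR the same ratio was 17.7, 9.56 and 15.3, above that of every SASP mouse. Cyp2c55 exceeded Cyp2c65 by 90.8 to 170.8 times in BBR and by 3.58, 106.9 and 34.6 times in SASP mice 1, 2 and 3, and these ranges overlapped.

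As a description and not a test of genes chosen on this contrast, 6 of the 7 members passed the filter, Cyp2c65 through the BBR mice, and 3 were below an adjusted p of 0.05 in limma on log2(FPKM + 1). These were Cyp2c55, Cyp2c65 and Por, all higher with BBR. Over all 12072 genes tested, 8.86% passed in either direction, 3.82% higher and 5.04% lower with BBR, and in 21.3% every BBR mouse was above every SASP mouse. Since the genes were chosen with this contrast known, nothing is read from their share. The median log2 fold change of all genes was 0.097, and 0.017 after median-ratio scaling, so small differences such as those of Rxra and Nr1i3 are near the overall shift. The 3 calls depended on single mice. None was kept without BBR mouse 1, SASP mouse 1 or SASP mouse 3, when the log2 fold changes were 4.52, 3.60 and 4.88 for Cyp2c55, 1.81, 1.83 and 1.72 for Cyp2c65, and 0.88, 0.73 and 0.90 for Por. Without BBR mouse 2 Cyp2c65 alone passed, at 1.99, and the others were at 5.09 and 1.00. Without BBR mouse 3 the 3 passed, at 4.65, 1.52 and 0.90, and Nr1i2 joined them, at 0.63, while Nr1i3 was at 0.45 and Rxra at 0.27. With no filter on low values Cyp2c65 alone passed, and without a variance trend Por did not. With array weights, which gave each sample its own weight, 5 members passed, among them Nr1i2 at 0.61 and Rxra at 0.25. All 6 members with a value had the same sign in every alternative except Nr1i3.

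The 3 Cyp2c members lie in a cluster on chromosome 19, and of 13 other Cyp2c symbols looked up (Cyp2c44 being an older name of Cyp2c23), the table held 6 and 1 had enough signal to be tested. That gene was Cyp2c68, at 123, 113 and 33.2 FPKM in BBR and at 13.4, 28.2 and 20.2 FPKM in SASP. The groups did not overlap, and BBR mouse 3 lay close above the highest SASP mouse. The log2 fold change was 1.92 (SE 0.51), which missed the threshold (limma adjusted p = 0.0613). It passed with median-ratio scaling, quantile normalization or array weights, and without BBR mouse 3, when the fold change was 2.52. In the Cyp2c68 transcript 725 of 1675 windows (43.3%) were shared with another gene, mostly Cyp2c40, and it matched Cyp2c40, Cyp2c67 and Cyp2c69 at 98%, 97% and 96.4% of aligned bases. The sum over these 4 genes, whose transcripts differ little in length so that it depends less on how reads were divided among them, was 126.6, 115.2 and 34.3 FPKM in BBR mice, against 13.6, 28.8 and 20.4 FPKM in SASP.

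The other Cyp2c genes were near the lower limit of measurement. Cyp2c69 was at 2.67, 1.22 and 0.87 FPKM in BBR and at 0.05, 0.38 and 0 FPKM in SASP, so its groups did not overlap either, but it shared 54.8% of its windows with other genes. Cyp2c67 and Cyp2c70 stayed below 1 FPKM in all mice, as did Cyp2c40. Cyp2c23, which encodes an epoxygenase, was at 1.27, 0.76 and 0.84 FPKM in BBR and at 0.2, 1.15 and 0.48 FPKM in SASP. Cyp2c29, Cyp2c37, Cyp2c38, Cyp2c39, Cyp2c50 and Cyp2c54, which lie in the same cluster, were not analysed here. In SASP mouse 1 Cyp2c68 was 3.35 times as high as Cyp2c55, whereas in the other 5 mice it was 0.0430 to 0.710 times as high.

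**Figure D2:**
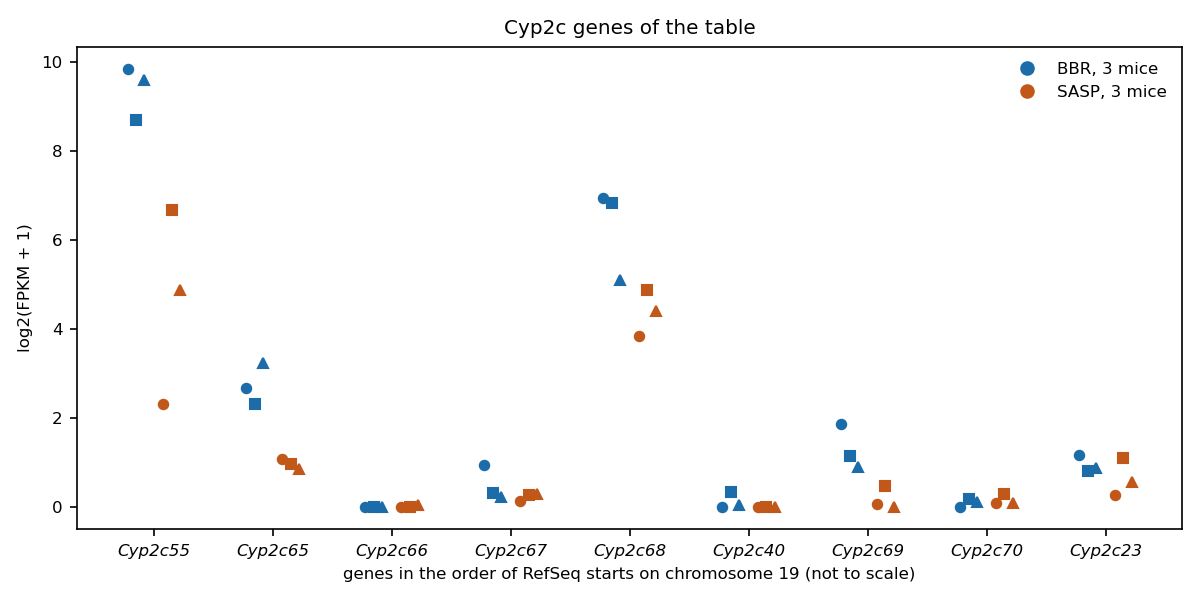
Log2(FPKM + 1) of the 9 Cyp2c genes of the table in each mouse, ordered by RefSeq position on chromosome 19 and not to scale, with BBR mice in blue and SASP mice in orange and symbols as in the plot of the 7 genes. Cyp2c55 and Cyp2c68 have the highest levels, and Cyp2c66 between them lies at 0 in 5 of 6 mice.

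Of 33 listed targets of PXR and CAR, genes of oxidation, conjugation and export known to respond to these receptors, 25 were in the table and 17 were tested. Of these, 10 were higher and 7 lower with BBR. A total of 2 passed the threshold, both higher. Over all genes tested, 8.86% passed in either direction and 3.82% higher with BBR. With so few genes, nothing is read from the count of calls in this list or those below. The median log2 fold change was 0.15 against 0.097 over all genes. Abcb1a, which encodes the drug exporter P-glycoprotein, was at 229, 141 and 223 FPKM in BBR and at 32.9, 93.7 and 50.9 FPKM in SASP. The log2 fold change was 1.82 (SE 0.38, limma adjusted p = 0.0361), and the groups did not overlap. The call was lost with no filter and without BBR mouse 1, BBR mouse 2, SASP mouse 1 or SASP mouse 3, with log2 fold changes of 1.70, 2.05, 1.47 and 1.78.

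Gstt1, a glutathione transferase gene, was at 37.2, 35.0 and 37.0 FPKM in BBR and at 15.2, 24.2 and 22.4 FPKM in SASP. It was higher with BBR by 0.82 on the log2 scale (SE 0.17, limma adjusted p = 0.0373), with no overlap between groups. The call was lost with no filter and without any 1 mouse other than BBR mouse 3, with log2 fold changes of 0.62 to 0.94. The remaining 15 did not pass. Among them, Gsta1, also a glutathione transferase gene, was at 7.17, 11.9 and 29.3 FPKM in BBR and at 26.8, 70.2 and 26.9 FPKM in SASP, and its log2 fold change was -1.37 (SE 0.55) with a limma adjusted p of 0.14. Cyp3a13, the Cyp3a gene of the list that was tested, was at 87.8, 92.7 and 57.8 FPKM in BBR and at 74.2, 63.4 and 69.5 FPKM in SASP, and its groups overlapped. Cyp2b10, the classical target of CAR in liver, was listed at 0 in 5 of 6 mice and at 0.03 FPKM in BBR mouse 2. Gsta1 and Cyp3a13 were singled out after their values were seen, as was Cyp2b10.

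**Figure D3:**
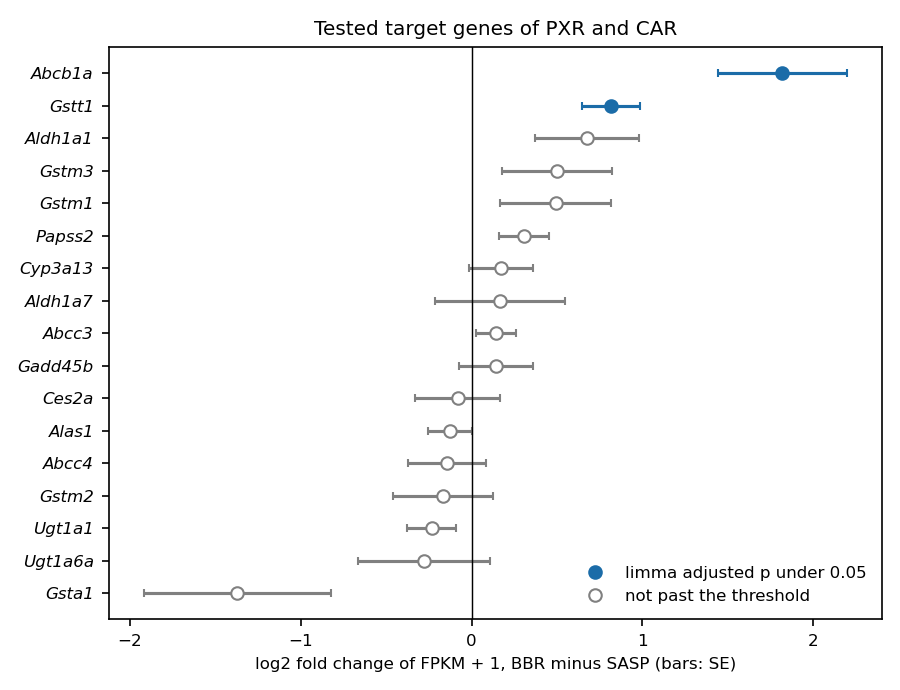
Log2 fold change of FPKM + 1 between BBR and SASP, with its SE as a bar, for the 17 tested targets of PXR and CAR. Filled blue points passed a limma adjusted p of 0.05. Abcb1a and Gstt1 are the filled points, and the other genes lie on both sides of 0.

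Among 18 listed cofactors and neighbours of the receptors, such as coactivators, corepressors, chaperones and the liver-enriched factors that act on the same genes, 16 were tested and 0 passed in limma, with 2 at an unadjusted p under 0.05. Of these, 11 were higher and 5 lower with BBR, with a median log2 fold change of 0.11. The gene with the widest difference was Cebpa, a transcription factor of differentiated epithelium and liver, at 23.7, 28.6 and 21.2 FPKM in BBR and at 13.5, 18.1 and 15.4 FPKM in SASP. Its groups did not overlap, and its log2 fold change of 0.61 (SE 0.15) missed the threshold (limma adjusted p = 0.0532). It passed with median-ratio scaling, quantile normalization or array weights, and without BBR mouse 3, when the fold change was 0.71. Hnf4a, which encodes a factor that acts on Nr1i2 and on P450 genes, was at 265, 245 and 168 FPKM in BBR and at 186, 189 and 189 FPKM in SASP. BBR mouse 3 was the lowest of its group, as for Nr1i2, and here it lay below the SASP mice.

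RXR alpha also pairs with other receptors, and of 14 such genes 12 were tested. Of these, 9 were higher and 3 lower, with a median log2 fold change of 0.34 against 0.097 over all genes. The threshold was passed by 1 of the 12, beside 8.86% of all genes tested. That gene was Nr4a1, an immediate early receptor gene, at 3.71, 17.3 and 14.3 FPKM in BBR and at 1.78, 1.31 and 1.91 FPKM in SASP. Its log2 fold change was 2.05 (SE 0.48, limma adjusted p = 0.0472). The call was lost with no filter, with a mean of at least 5 FPKM required or with no variance trend. It was also lost without BBR mouse 2, SASP mouse 1, SASP mouse 2 or SASP mouse 3, with log2 fold changes of 1.68, 2.08, 1.95 and 2.11. The size was less certain than these values show, as it was 0.97 with array weights and 2.66 without BBR mouse 1, both past the threshold.

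Por works beside a second electron chain of the endoplasmic reticulum, cytochrome b5 and its reductase, and with heme-binding partners and heme oxygenases. The list of 8 genes tested also holds Fech, a gene of heme synthesis, and Cyb5b, a cytochrome b5 gene of mitochondria. Of the 8, 6 were higher and 2 lower, with a median log2 fold change of 0.087 against 0.097 over all genes. The threshold was passed by 1 of the 8, beside 8.86% of all genes tested. Cyb5r3, the cytochrome b5 reductase gene, was at 52.0, 54.1 and 49.4 FPKM in BBR and at 32.1, 41.5 and 31.4 FPKM in SASP, and its log2 fold change was 0.57 (SE 0.13) with a limma adjusted p of 0.0441. The groups did not overlap. The call was lost with no filter, with no variance trend and without BBR mouse 1, BBR mouse 2, SASP mouse 1 or SASP mouse 3, with log2 fold changes of 0.56, 0.53, 0.51 and 0.50. The log2 fold change of Por, 0.93, was larger than that of any of these 8 genes.

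Cyp2c enzymes can turn arachidonic acid into epoxyeicosanoids, as can Cyp2j enzymes, and epoxide hydrolases remove the products. Of 9 such genes 8 were in the table and 3 were tested. All 3 were higher and 0 passed in limma, with 0 at an unadjusted p under 0.05. Ephx1, the microsomal epoxide hydrolase gene, had the widest difference, at 10.1, 14.4 and 6.75 FPKM in BBR and at 5.19, 7.99 and 6.91 FPKM in SASP. The groups overlapped, and the log2 fold change was 0.53 (SE 0.27, limma adjusted p = 0.215). With array weights and without BBR mouse 3 it passed, the latter at 0.78, and without BBR mouse 2 its log2 fold change was 0.29.

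Cyp2c55, Por, Abcb1a and Gstt1 placed the mice in the same order within each group. In BBR mouse 2 was lowest and mouse 1 highest, and in SASP mouse 1 was lowest and mouse 2 highest. Both orders together were shared by 183 of 12072 genes tested (1.52%), counting these genes. The order of SASP mice alone was shared by 31.6% of genes and that of BBR mice alone by 5.53%. Nr1i3, Rxra and Cyp2c68 followed Cyp2c55 in SASP but not in BBR, where BBR mouse 3 was lowest. Nr1i2 and Cyp2c65 followed it in neither group. An order of 3 mice is coarse and is given as a description.

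**Figure D4:**
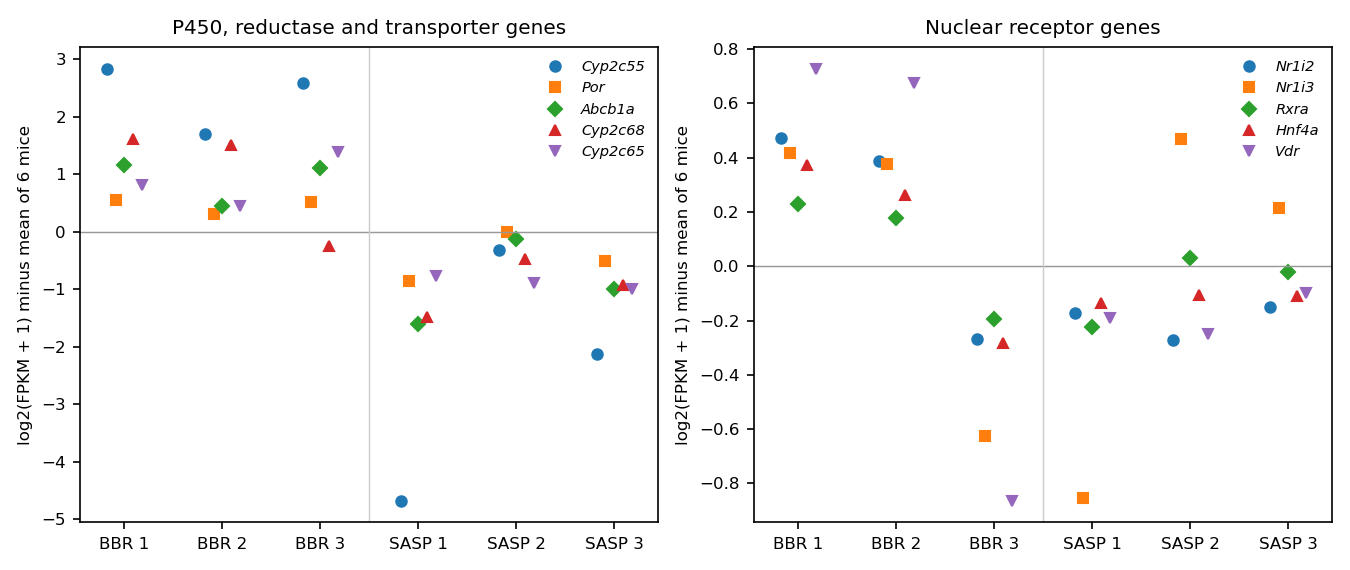
Log2(FPKM + 1) of each gene minus its mean over the 6 mice, for BBR mice 1 to 3 and SASP mice 1 to 3, with a different vertical scale on each side. Left, Cyp2c55, Por, Abcb1a, Cyp2c68 and Cyp2c65 lie higher in BBR than in SASP. Right, for Nr1i2, Nr1i3, Rxra, Hnf4a and Vdr, BBR mouse 3 lies below BBR mice 1 and 2. Hnf4a and Vdr were chosen after values were seen. Not all receptor genes had this order, as Nr1h4 and Ppard, which are not drawn, were highest in BBR mouse 3 within that group.

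Likeness of profile was measured as the root mean square difference of mean-centred log2(FPKM + 1) over the 6 samples. The genes most like Cyp2c55 were Car1 (1.23), a carbonic anhydrase gene of surface colonocytes, Hsd3b3 (1.42), a steroid dehydrogenase gene, and LOC100041504 (1.44). Car1 was at 1200.3, 1260.7 and 2345.1 FPKM in BBR and at 71.8, 853 and 328 FPKM in SASP, so it shared with Cyp2c55 the order of SASP mice. The nearest to Cyp2c65 were 2310079G19Rik (0.22), Plcd3 (0.34) and Etfbkmt (0.34). Near to Por were Slc17a9 (0.078) and Ppil6 (0.082).

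The measure is not scaled to the range of a gene, so genes that vary little between mice lie closer to others. Nr1i2 and Rxra had closer neighbours than the other tested members, and the neighbours of Nr1i3 were farther than those of Por. Those of Nr1i2 were Zscan26 (0.028), Ggact (0.030) and Kctd2 (0.048), and those of Rxra were Usp49 (0.026), Hmox2 (0.031) and Dhx34 (0.032). Those of Nr1i3 were Etv4 (0.20), Slc16a3 (0.22) and Macrod1 (0.25). These likenesses rest on 6 samples in 2 groups and say nothing of shared function.

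Tissue makeup was examined through marker genes, because in bulk tissue fewer cells of a type and less RNA per cell cannot be told apart. All 10 epithelial markers were tested, and their summed level overlapped between groups, at 7893 to 8510 FPKM in BBR and 7897 to 8842 FPKM in SASP. The single markers were less even, with 8 higher and 2 lower. With limma, 3 of them passed the threshold, namely Krt18 (log2 fold change 0.75) and Cdx2 (1.5) higher and Vil1 (-0.55) lower with BBR. These calls also depended on single mice. None of the 3 was kept without BBR mouse 1, SASP mouse 1 or SASP mouse 3, when Krt18 was at 0.72, 0.82 and 0.74, Cdx2 at 1.30, 1.40 and 1.27, and Vil1 at -0.58, -0.50 and -0.55. Without BBR mouse 2 Cdx2 (1.75) and Vil1 (-0.53) lost theirs, as Vil1 did without SASP mouse 2 (-0.60). Epcam, which encodes an epithelial adhesion molecule, was at 943 to 1044 FPKM in BBR and 833 to 1101 FPKM in SASP.

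Summed markers of surface colonocytes were at 4946 to 8578 FPKM in BBR and 4330 to 5713 FPKM in SASP, and at most 5982 FPKM in BBR without BBR mouse 3. Of the 9 tested, 5 were higher and 4 lower, with 3 at an unadjusted p under 0.05. Slc20a1, a phosphate transporter gene, passed the threshold in limma (log2 fold change 2.11), and Krt20, a keratin gene of mature cells, was lower with BBR but did not pass (-1.18). Car1 had the widest difference of the 9, higher with BBR by 2.48 (SE 0.82) without overlap of the groups. It did not pass (limma adjusted p = 0.095). The call of Slc20a1 was lost without any 1 mouse other than BBR mouse 3, with log2 fold changes of 1.77 to 2.32. Of 6 goblet cell markers 5 were higher, and their sum was 11670 to 23590 FPKM in BBR and 9791 to 15020 FPKM in SASP, with at most 13420 FPKM in BBR without BBR mouse 3. The sums of surface colonocyte, goblet cell and smooth muscle markers were each lowest in SASP mouse 1 and highest in SASP mouse 2 within that group, as Cyp2c55 was. The order of Cyp2c55 in SASP mice was shared by 31.6% of all genes tested. The sums of epithelial and leukocyte markers ran the other way, highest in SASP mouse 1 and lowest in SASP mouse 2. The part of these markers in the results for the 7 genes was not tested.

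The summed levels of smooth muscle and leukocyte markers did not overlap between the drugs, although none of these genes passed the threshold. All 8 smooth muscle markers were higher in BBR, with 0 past the threshold in limma and 6 at an unadjusted p under 0.05. Their sum was 3116, 3305 and 7258 FPKM in BBR mice 1, 2 and 3 and 842 to 2563 FPKM in SASP. Leukocyte markers, 5 of 8 tested and 1 at an unadjusted p under 0.05, summed to 16.6 to 23.0 FPKM in BBR and 24.2 to 40.8 FPKM in SASP. The part of either list in the results for the 7 genes was not tested.

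Hepatocyte markers, of which 7 of 8 were in the table, summed to 26.5, 33.1 and 7.93 FPKM in BBR and to 7.12 to 11.7 FPKM in SASP. Most of this was Ttr, the transthyretin gene, at 25.4, 22.9 and 6.45 FPKM in BBR and at 5.79, 8.58 and 7.03 FPKM in SASP. Cyp2e1, a P450 gene, reached 9.41 FPKM in BBR mouse 2 and 2.91 FPKM in SASP mouse 3 and was at most 0.21 FPKM in the others. Alb and Apoa1, which encode major plasma proteins of liver, were at 0.03 to 0.35 FPKM and at or below 0.10 FPKM. Squamous epithelium markers summed to at most 2.24 FPKM. The 4 genes of the posterior Hox group mark the hindgut end. They summed to 332, 395 and 202 FPKM in BBR mice 1, 2 and 3 and to 236 to 286 FPKM in SASP. The groups overlapped through BBR mouse 3 alone, which lay below the SASP mice, whereas BBR mice 1 and 2 lay above them. Of the 4 genes 3 were higher and 1 lower with BBR, and 0 passed in limma. The part of site in the results for the 7 genes was not tested.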

How the data were processed

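Colorectal RNA of 6 samples from DSS-treated mice was sequenced, and each sample was assigned to BBR or SASP by its treatment label. Mouse numbers follow the order of samples within a group and pair no mice. The authors deposited 1 table of FPKM, made per gene and sample with Bowtie2 2.2.5 and RSEM 1.2.12. RSEM divides reads that fit several genes, which leaves close paralogs uncertain. The submitters' notes name build mm9, and the annotation is not given in the sources used here. The labels name an Illumina kit and the methods ribosomal RNA depletion with single-end nanoball sequencing, so library type is unsettled. The labels do not say that each sample is a separate mouse, and p-values measure the spread between these samples.

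FPKM are not counts. Values were transformed as log2(FPKM + 1), genes with at least 1 FPKM in at least 3 samples were tested with limma 3.58.1 (R 4.3.3; eBayes, trend over mean level), and two-sided p-values were adjusted by Benjamini-Hochberg over all 12072 tested genes (threshold 0.05). The step was checked on simulated data. An exact permutation test of 3 against 3 cannot give p below 0.10, so none was used.

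The members and gene lists were chosen with earlier results of these data known. The genes named are the members, every called gene of each pathway list or, where none was called, that with the largest absolute fold change, and the 3 nearest profiles of each member, 1 of which is not reported here. Genes outside this rule are described as such or serve as markers, neighbours in the cluster or context, and were chosen after values were seen.

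Depth, estimated from the value of 1 read in genes detected in a single sample, was 16400000 to 16800000 reads in BBR and 16800000 to 18200000 reads in SASP. It is approximate, and read numbers above cover counting error only. Promoter windows were taken from RefSeq on GRCm38.p6, and all 7 members had one. Gene order is from RefSeq, also on GRCm38.p6. Transcripts were the longest coding ones of GENCODE M21, aligned with Biopython 1.88 in place of proteins, a choice made after the data were seen. Alternatives were a pseudocount of 0.1, no filter, a mean of at least 5 FPKM, median-ratio scaling, quantile normalization, no variance trend, array weights and leaving out each mouse.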

Additional observations from a re-analysis of the deposited data

How the results depend on the processing

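The number of genes past the threshold, 1069, was 608 with no filter, 1713 with median-ratio scaling, 1737 with quantile normalization, 7126 with array weights, and 51 (without SASP mouse 3) to 4018 (without BBR mouse 3) when each mouse was left out. With no filter, the lists of PXR and CAR targets, RXR partners and microsomal electron transfer had 0 calls each, as did RXR partners with a mean of at least 5 FPKM, and RXR partners and microsomal electron transfer with no variance trend. With median-ratio scaling and with quantile normalization there was 1 call among other Cyp2c genes, 1 among cofactors, 2 among RXR partners and 3 in microsomal electron transfer. With array weights there was 1 call among other Cyp2c genes, 10 among targets, 13 among cofactors, 10 among RXR partners, 5 in microsomal electron transfer and 1 in the epoxyeicosanoid list. When each mouse was left out the counts were 0 to 1 for other Cyp2c genes, 0 to 7 for targets, 0 to 5 for cofactors, 0 to 8 for RXR partners, 0 to 3 for microsomal electron transfer and 0 to 1 for epoxyeicosanoid genes. The highest of each came without BBR mouse 3, and the cause was not tested.

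The log2 fold change of Cyp2c65 was 2.45 with a pseudocount of 0.1, which shrinks low values less. Leaving out each mouse gave 3.60 to 5.78 for Cyp2c55, 1.52 to 1.99 for Cyp2c65, 0.26 to 0.63 for Nr1i2, -0.29 to 0.45 for Nr1i3, 0.06 to 0.27 for Rxra and 0.73 to 1.15 for Por. Cyp2c65 and Nr1i3 were not tested with a mean of at least 5 FPKM. No paired analysis was possible because mouse numbers follow sample order only. With 3 mice per drug, the calls rest on few animals. FPKM hold no read totals, so the precision of low values is known only roughly, and the levels of Cyp2c65 and Cyp2c66 depend on how shared reads were divided.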
